A study of Caenorhabditis elegans with 12 samples.

Results

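Cytochrome P450 genes outside the cyp-35 subfamily were examined in whole Caenorhabditis elegans worms exposed to fluvastatin. The members were all genes in the deposited table whose symbol starts with cyp- and not with cyp-35, each represented by its most abundant transcript model. This gave 70 of the 30301 genes in the table, from 73 rows. A further 11 cyp genes belong to cyp-35 and are not members. The study compared 4 groups of 3 libraries each. The first was wild-type worms without fluvastatin (0 mM), and the second wild-type worms on 1 mM fluvastatin. The third was dlk-1 mutant worms at 0 mM, and the fourth dlk-1 mutant worms at 1 mM. All worms were synchronised at the first larval stage, grown for about 48 h to the fourth larval stage (L4) with about 200 worms on each of 4 plates per condition, and moved for 9 h to plates with or without the drug. RNA of the whole body was sequenced. Fluvastatin is a statin, an inhibitor of HMG-CoA reductase in the mevalonate pathway, and DLK-1 is an upstream kinase that signals to a p38 MAP kinase. The sample titles call the mutant p38_KO. The labels give neither the wild-type strain nor the dlk-1 allele, and nothing in them tells whether replicates came from separate cultures. The p-values therefore measure the spread between these libraries, part of which may be technical.

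Cytochrome P450 enzymes are heme proteins that insert oxygen into lipids, steroids and foreign chemicals, using electrons passed on by a reductase and by cytochrome b5. In C. elegans the family has expanded into many subfamilies, several of them in runs of neighbouring copies. Subfamilies such as cyp-14A, cyp-29A, cyp-34A and cyp-35 are known from studies of worms exposed to foreign compounds, many of them in the intestine, while others work in eggshell formation, fatty acid oxidation or hormone synthesis. By similarity to mammalian clans, 34 of the members are CYP2-like (cyp-14A, cyp-33, cyp-34A, cyp-36A), 21 are CYP3-like (cyp-13A, cyp-13B, cyp-25A, cyp-43A), 13 are CYP4-like (cyp-29A, cyp-31A, cyp-32, cyp-37, cyp-42A) and the other 2 are cyp-23A1 and cyp-44A1.

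All 70 members matched the Ensembl release 115 annotation (build WBcel235) by sequence name. They fall into 21 subfamilies on 6 chromosomes, with 33 on chromosome V. The annotation calls 5 of them pseudogenes (cyp-13A9, cyp-25A5, cyp-29A1, cyp-31A1 and cyp-34A3) and gives cyp-34A4 the newer name dach-1. Neighbours at most 20 kb apart formed 9 runs that hold 39 of the members. The longest were a run of 9 from cyp-13A1 to cyp-13A8 on chromosome II (9779181 to 9807569) and a run of 7 from cyp-34A4 to cyp-34A10 on chromosome V (3950023 to 3972991).

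The libraries held 9370975 to 12438131 reads assigned to transcript models, and the deposited values were read counts scaled by size factors of 0.843 to 1.18. Fold changes below are on the log2(value + 1) scale, which understates the change of low genes, and a gene was tested when at least 3 libraries reached a value of 10, which left 15529 genes. A call means a limma adjusted p (Benjamini-Hochberg over all genes tested) under 0.05. The replicate numbers moved all groups together (processing), so a fit with replicate as a block was also made. Each member's call that differs between the fits is given with both adjusted p-values. A ± after a log2 difference is the standard error of the fit without the block, also beside an adjusted p from the blocked fit. For cyp-25A1 in wild type this error was 0.41 without and 0.13 with the block. The dlk-1 transcript itself was lower in the mutant: 888 ± 87.4 in wild-type control, 509 ± 30.2 in mutant control, 1249 ± 234 in wild type with the drug and 767 ± 53.3 in the mutant with the drug (normalised reads, SD, n = 3). At each dose the wild-type and mutant libraries did not overlap, and with the block the mutant was lower at 0 mM (log2 -0.80 ± 0.14, limma adjusted p = 0.011) and at 1 mM (log2 -0.69 ± 0.14, limma adjusted p = 0.0218), against adjusted p = 1.0 for both without it.

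Of the 70 members, 53 passed the filter and 17 did not, the highest single value among the 17 being 15.6. The members' means over the 12 libraries ran from 0.149 to 1958 normalised reads, with 21 members under 10 and 21 at 100 or above. Among the 53, 44 passed the filter both through their control and through their fluvastatin libraries. A further 4 passed only through the fluvastatin libraries (cyp-13A6, cyp-14A3, cyp-14A4 and cyp-34A10), 4 only through the controls (cyp-13A12, cyp-33C2, cyp-34A2 and cyp-34A5), and cyp-29A4 only through both pooled. A member that passed through 1 treatment alone owed its test to its level there, so its adjusted p depends on that selection. The counts of calls below describe the family and support nothing beyond each gene's own test.

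Per kilobase of exon, cyp-31A2 was the most abundant member in each of the 4 groups, at 1206 ± 165 normalised reads per kilobase in wild-type control and 1188 ± 126 with the drug (SD, n = 3). The CYP-31A2 enzyme acts with its near copy CYP-31A3 in forming the lipid layer of the eggshell. The gene cyp-44A1, which encodes the worm's mitochondrial-type P450, came next at 660.4 ± 71.4 normalised reads per kilobase in wild-type control and 708 ± 111 with the drug. Its exons overlap those of npp-24 on the same strand, which had a mean of 2571 normalised reads in wild-type control. The level of cyp-44A1 may therefore hold reads of npp-24. Below cyp-31A2 and cyp-44A1 stood cyp-31A3 at 446 ± 43.8 and cyp-31A5 at 382 ± 29.8 normalised reads per kilobase in wild-type control, which differ by less than the sum of their SDs. In wild-type control the next were cyp-43A1 (196 ± 15.3), cyp-25A2 (170.3 ± 52.2), cyp-34A8 (156 ± 7.91) and cyp-33A1 (151 ± 47), and neighbours in this order lay within the sum of their SDs. With fluvastatin the order below the leading 3 changed. The gene cyp-34A9 moved from rank 26 to rank 6 of 70 in wild type and from 24 to 6 in the mutant, and cyp-29A3 from 35 to 9 and from 30 to 7.

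**Figure D1:**
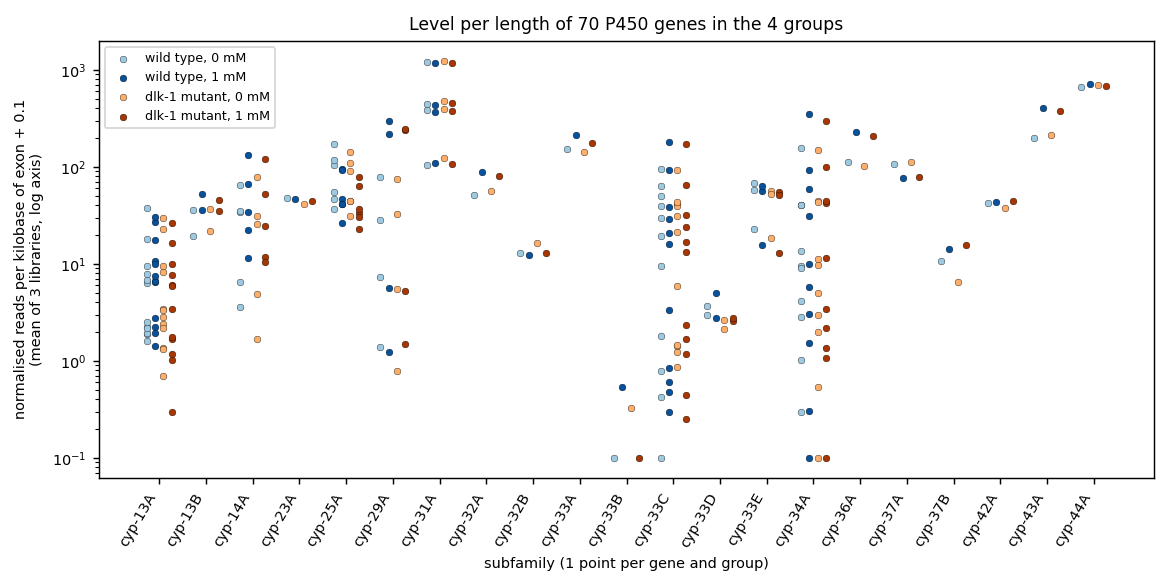
Level of each of the 70 P450 genes as normalised reads per kilobase of exon plus 0.1 (log axis), 1 point per gene and group (mean of 3 libraries), arranged by subfamily. The cyp-31A genes and cyp-44A1 stayed high in all 4 groups, while cyp-29A, cyp-34A and cyp-14A spread in the fluvastatin groups, with cyp-29A2, cyp-29A3, cyp-34A9, cyp-34A10 and 4 cyp-14A genes higher and cyp-34A2, cyp-34A8 and cyp-14A1 lower.

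In wild type, fluvastatin raised 9 of the 53 tested members and lowered 1, or 18.9% of them. Over all 15529 genes, 1.82% were called in this comparison, 1.39% higher and 0.425% lower. With the replicate block, 15 members were higher and 7 lower, where 7.03% of all genes were called (3.77% higher and 3.25% lower). In the dlk-1 mutant, limma called 6 members higher and none lower, 11.3% of those tested, against 1.38% of all genes (1.13% higher and 0.251% lower). At an unadjusted p under 0.05 it found 12 higher and 9 lower in the mutant, beside 884 of all 15529 genes in either direction. At an adjusted p edgeR found 0 lower and DESeq2 2. With the block, 14 members were higher and 9 lower in the mutant, where 6.31% of all genes were called (3.22% higher and 3.09% lower). The members did not move one way as a family. Their median log2 difference was -0.02 in wild type and -0.03 in the mutant, beside 0.01 in each genotype for all genes, and single members ranged from -2.35 to 3.71 in wild type and from -2.20 to 3.58 in the mutant.

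By clan, 24 CYP2-like members were tested, and 6 rose and 1 fell in wild type (10 and 4 with the block), while 3 rose in the mutant (9 and 4). Of 15 CYP3-like members, 1 rose in each genotype. With the block 2 CYP3-like members rose and 2 fell in wild type, and 1 rose and 4 fell in the mutant. Of 12 CYP4-like members, 2 rose in each genotype, and with the block 3 rose and 1 fell in wild type, and 4 rose and 1 fell in the mutant. Neither cyp-23A1 nor cyp-44A1 was called in any comparison.

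**Figure D2:**
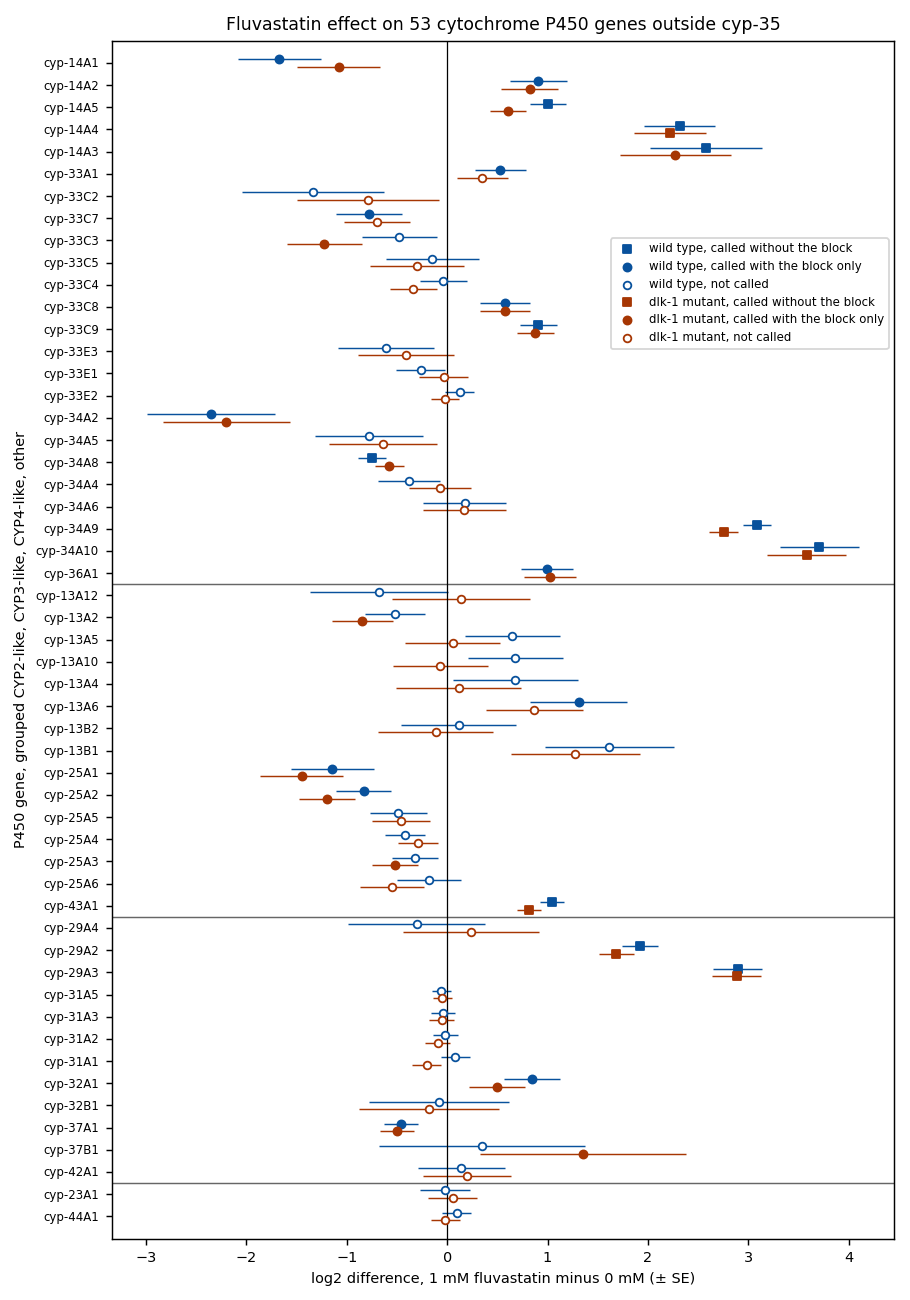
Fluvastatin effect on each of the 53 tested P450 genes as the log2 difference between 1 mM and 0 mM (± SE of the fit without the block, 3 libraries against 3), in wild type (blue) and dlk-1 mutant (brown), with squares for calls made without the replicate block, filled circles for calls made only with it and open circles for the rest. The values run from -2.35 for cyp-34A2 to 3.71 for cyp-34A10 in wild type, and the cyp-31A genes sit near 0.

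The cyp-34A subfamily held both the largest rise and the largest fall. In wild type, cyp-34A10 (B0213.16, chromosome V, 3970702 to 3972991, minus strand) had 4.35, 9.95 and 4.75 normalised reads in control replicates 1, 2 and 3 and 109.5, 68.7 and 96.5 with fluvastatin. In the mutant it had 3.05, 4.76 and 5.81 in control and 94.6, 50.3 and 54.9 with fluvastatin. Every treated library was far above every control library in both genotypes, with log2 differences of 3.71 ± 0.39 in wild type (limma adjusted p = 0.000497) and 3.58 ± 0.39 in the mutant (limma adjusted p = 0.000717). Its control values lay below the filter of 10 in all 6 control libraries, so the size of this fold change rests on few reads.

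The neighbouring cyp-34A9 (B0213.15, chromosome V, 3968134 to 3970540, minus strand) was measured at higher depth. Wild-type control libraries held 74.8, 75 and 58.2 normalised reads of cyp-34A9 and treated ones 565, 552 and 666, while mutant control libraries held 74.2, 69.5 and 77.9 and treated ones 540.4, 465 and 509. The groups did not overlap within either genotype, and the means rose 8.57-fold in wild type (log2 3.09 ± 0.14, limma adjusted p = 2.7e-06) and 6.83-fold in the mutant (log2 2.75 ± 0.14, limma adjusted p = 5.72e-06). The effects in the 2 genotypes differed by -0.33 on the log2 scale, with a 95% interval of -0.78 to 0.11. The 3 transcript models of cyp-34A9 rose alike in wild type, from 69.3 to 594, from 66.3 to 575 and from 16.2 to 122 normalised reads, and since their exons are shared these are not separate measurements.

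Other cyp-34A genes fell or were not called. Next to cyp-34A9 on the same strand, cyp-34A8 had 239, 239.6 and 261 normalised reads in wild-type control and 147, 136 and 156 with fluvastatin. Mutant control libraries held 245, 200.0 and 260.4 normalised reads of cyp-34A8 and treated ones 150.3, 144 and 177. Treated libraries lay below control libraries in both genotypes, and the fall was called in wild type (log2 -0.75 ± 0.14, limma adjusted p = 0.0215), a call lost in 9 of 15 leave-outs without the block. In the mutant the log2 difference of -0.58 ± 0.14 was called only with the block (limma adjusted p = 0.00124, against 0.113 without it). The low-expressed cyp-34A2, which lies elsewhere on chromosome V beside cyp-34A1, had 26.1, 16.3 and 29.7 normalised reads in wild-type control and 11, 1.04 and 3.37 with fluvastatin. In the mutant its control values were 27.4, 14.3 and 17.4 and its treated values 5.91, 1.86 and 3.17. No treated library reached a control library of the same genotype, and the log2 differences of -2.35 ± 0.63 and -2.20 ± 0.63 were called with the block (limma adjusted p = 0.0013 and 0.00263, against 0.149 and 0.234 without it). Of the remaining tested cyp-34A genes, cyp-34A5 had the largest uncalled difference, at log2 -0.78 in wild type and -0.64 in the mutant.

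The cyp-29A genes are CYP4-like, and their product CYP-29A3 is known for turning polyunsaturated fatty acids into eicosanoids. In wild type cyp-29A3 (Y38C9B.1, chromosome V, 59239 to 63633) had 49.6, 57 and 40.4 normalised reads in control and 417, 271 and 439 with fluvastatin. The mutant held 55.9, 46.7 and 66.3 in control and 438, 333 and 499.7 with the drug. Treated libraries stood well above controls in both genotypes, with replicate 2 the lowest of the treated ones, and the log2 differences were 2.90 ± 0.24 (limma adjusted p = 8.76e-05) and 2.88 ± 0.24 (limma adjusted p = 9.93e-05). The 95% interval for the difference between these effects was -0.77 to 0.75.

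Its relative cyp-29A2 (T19B10.1, chromosome V, 11217583 to 11219911) had 153, 155 and 104 normalised reads in wild-type control and 483, 510.1 and 553 with fluvastatin. Mutant libraries held 141, 145 and 105 in control and 431, 407 and 412 with the drug. The groups were again fully apart, with log2 differences of 1.92 ± 0.18 in wild type (limma adjusted p = 0.000167) and 1.69 ± 0.18 in the mutant (limma adjusted p = 0.000486). The annotated pseudogene cyp-29A1 stayed under 3 normalised reads in each library and was not tested, and cyp-29A4 (2.03 to 19.9 normalised reads) was not called.

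**Figure D3:**
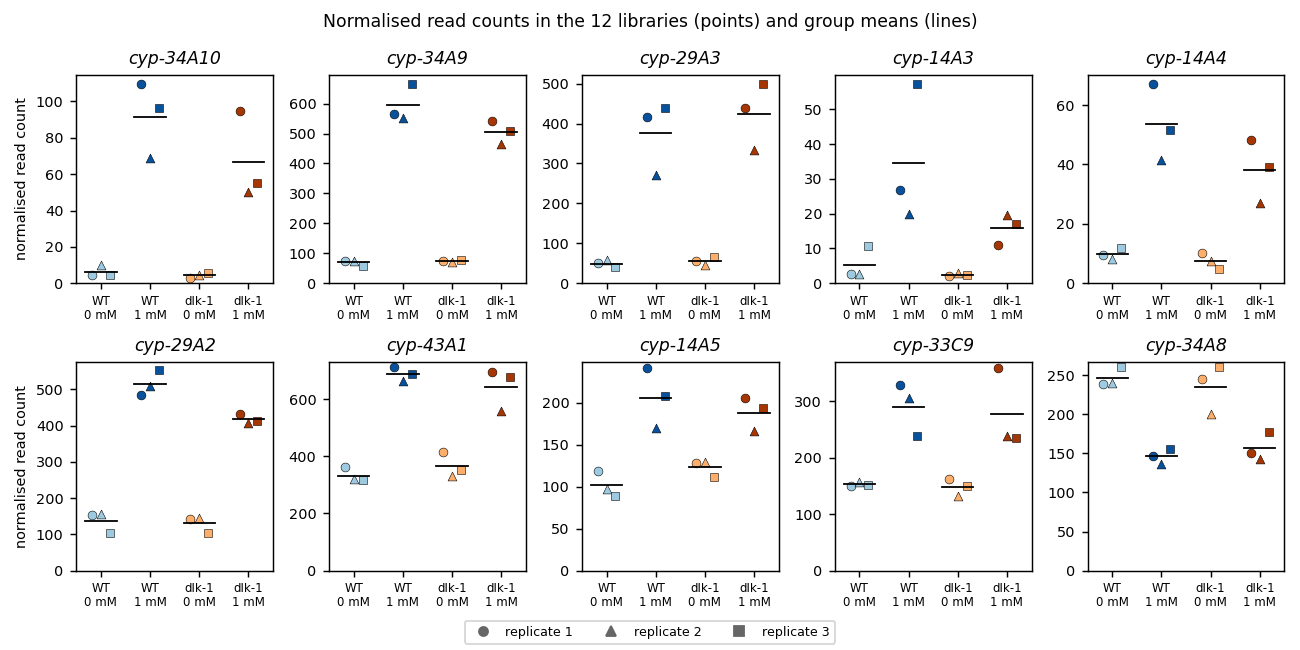
Normalised read counts in the 12 libraries (points, shaped by replicate number) with group means (lines) for the 10 P450 genes called without the block in wild type. In each panel the treated libraries of a genotype lie wholly above (wholly below for cyp-34A8) the control libraries of that genotype, for example 565, 552 and 666 against 74.8, 75 and 58.2 for cyp-34A9 in wild type.

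All 5 cyp-14A genes were tested, and with the block 4 rose and 1 fell in each genotype. The most abundant, cyp-14A5 (F08F3.7, chromosome V), had 119.2, 97.7 and 89 normalised reads in wild-type control and 241, 169.7 and 208 with fluvastatin. Mutant libraries held 128, 129.5 and 112 of cyp-14A5 in control and 205, 166 and 193 with the drug. The groups did not overlap in either genotype, and the log2 difference was 1.00 ± 0.18 in wild type (limma adjusted p = 0.0138) and 0.61 ± 0.18 in the mutant (limma adjusted p = 0.007 with the block, 0.245 without). The other 4 lie in 1 run of 19.2 kb on chromosome X. In wild type cyp-14A4 had 9.57, 8.14 and 11.9 normalised reads in control and 67.2, 41.6 and 51.6 with fluvastatin. In the mutant cyp-14A4 had 10.2, 7.62 and 4.65 in control and 48.1, 27 and 39.1 with the drug. Its rise was called without the block in both genotypes, at log2 2.31 ± 0.36 (limma adjusted p = 0.00611) and 2.22 ± 0.36 (limma adjusted p = 0.0094). The gene cyp-14A4 passed the filter only through its fluvastatin libraries, so these tests were made because of its level there. Both calls were kept with no filter on low values.

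The scarce cyp-14A3 had 2.61, 2.71 and 10.7 normalised reads in wild-type control and 26.7, 19.8 and 57.2 with fluvastatin, replicate 3 being the highest in both groups. In the mutant cyp-14A3 had 2.03, 2.86 and 2.33 in control and 11, 19.6 and 16.9 with the drug. Treated libraries exceeded controls in both genotypes, and the log2 difference of 2.58 ± 0.56 in wild type was called at limma adjusted p = 0.0463, a call lost with edgeR and in other settings given in the closing section. In the mutant the log2 difference of 2.27 ± 0.56 was called only with the block (limma adjusted p = 0.00358, against 0.112). For cyp-14A2 the wild-type control values were 54.8, 54.3 and 53.4 normalised reads and the treated values 95.7, 112 and 99.9, a log2 difference of 0.91 ± 0.28 (limma adjusted p = 0.0257 with the block, 0.273 without). Its log2 difference in the mutant was 0.82 ± 0.28 (limma adjusted p = 0.0488 with the block, 0.443 without).

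At the other end of the same run cyp-14A1 went the opposite way. It had 46.1, 64.2 and 45.1 normalised reads in wild-type control and 8.28, 29.1 and 14.6 with fluvastatin. In the mutant cyp-14A1 had 36.6, 50.5 and 31.4 in control and 16.9, 22.4 and 14.8 with the drug. The control and treated libraries did not overlap in either genotype, and the log2 differences of -1.67 ± 0.41 and -1.08 ± 0.41 were called with the block (limma adjusted p = 0.000769 and 0.0213, against 0.0959 and 0.596 without it).

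Among the 18 cyp-33 genes, of which 11 were tested, cyp-33C9 (C50H11.15, chromosome V) was the member called without the block. It had 150.5, 156 and 152 normalised reads in wild-type control and 329, 306 and 238 with fluvastatin. In the mutant cyp-33C9 had 163, 131 and 150.0 in control and 359, 239 and 234.5 with the drug. Treated libraries were above controls in both genotypes, and the log2 difference was 0.91 ± 0.19 in wild type (limma adjusted p = 0.0372, a call lost in 10 of 15 leave-outs without the block) and 0.88 ± 0.19 in the mutant (limma adjusted p = 0.000647 with the block, 0.0534 without). With the block, cyp-33C8 also rose in both genotypes, by log2 0.57 in wild type (limma adjusted p = 0.0441, against 0.775 without the block) and 0.58 in the mutant (0.0475, against 0.798). The gene cyp-33A1 rose with the block in wild type (log2 0.53 ± 0.25, limma adjusted p = 0.0173, against 0.991 without it), and its mutant value of 0.35 was not called.

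The 2 other cyp-33 genes called with the block were lower, each in 1 genotype. In wild type cyp-33C7 fell (log2 -0.78 ± 0.33, limma adjusted p = 0.0388, against 0.72 without the block), and in the mutant its log2 difference was -0.70 (limma adjusted p = 0.073 with the block). In the mutant cyp-33C3 fell (log2 -1.22 ± 0.37, limma adjusted p = 0.0098, against 0.295 without the block), and in wild type its log2 difference was -0.48 (limma adjusted p = 0.372 with the block). No test found a different effect of the drug between the genotypes for either gene. The largest uncalled cyp-33 value was that of cyp-33C2, at log2 -1.34 in wild type and -0.79 in the mutant, with 1.16 to 20 normalised reads in control and 2.53 to 6.25 with the drug. The subfamily cyp-33E held 3 tested genes and none was called, among them cyp-33E2, whose product makes eicosanoids in the pharynx (log2 0.12 in wild type and -0.02 in the mutant). The most abundant of that subfamily per kilobase over all 12 libraries, cyp-33E1 (below cyp-33E2 in treated wild type), had log2 differences of -0.26 and -0.03. The remaining 7 cyp-33 genes, with cyp-33B1 and cyp-33D3 as the most abundant per kilobase of their subfamilies, were too low to test.

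The last CYP2-like member, cyp-36A1, is known in C. elegans for acting downstream of the hypoxia factor HIF-1. It had 236, 140.2 and 208 normalised reads in wild-type control and 535, 264 and 387 with fluvastatin, with replicate 2 the lowest in each. In the mutant cyp-36A1 had 169.7, 165 and 202 in control and 391, 310.3 and 395 with the drug. The groups did not overlap within a genotype, and the log2 differences of 0.99 ± 0.26 and 1.02 ± 0.26 were called with the block (limma adjusted p = 0.000736 and 0.000688, against 0.133 and 0.137 without it). Its exons overlap those of figo-1 on the opposite strand, and the library kit does not mark strand, so reads of the overlap cannot be told apart. The log2 difference of figo-1 was 0.17 in wild type and 0.07 in the mutant, neither called.

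The CYP3-like members contained 1 gene that rose in both genotypes without the block. This was cyp-43A1 (E03E2.1, chromosome X, 5714522 to 5717562), with 363, 320.1 and 316 normalised reads in wild-type control and 711, 665 and 688 with fluvastatin. In the mutant cyp-43A1 had 415, 329 and 351 in control and 694, 557 and 677 with the drug. Groups were fully apart in both genotypes, with log2 differences of 1.05 ± 0.12 (limma adjusted p = 0.00086) and 0.81 ± 0.12 (limma adjusted p = 0.00543). Its exons overlap C41G11.1 on the opposite strand, a gene whose own log2 differences of 0.13 and -0.21 were not called.

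The 6 cyp-25A genes all had negative differences in both genotypes, with medians of log2 -0.46 in wild type and -0.54 in the mutant, and with the block 2 fell in wild type and 3 in the mutant. Without the block limma and edgeR called none, and DESeq2 called cyp-25A2 in the mutant. At an unadjusted limma p under 0.05, 906 of all 15529 genes passed in wild type and 884 in the mutant. Of the 6 cyp-25A genes, 2 passed in wild type and 3 in the mutant. The first 4 form a run of 19.5 kb on chromosome III (3832591 to 3852080). Normalised reads of cyp-25A1 were 125, 267 and 121 in wild-type control and 53.4, 111 and 61.7 with fluvastatin, then 113.8, 198 and 131 in mutant control and 43.1, 81.1 and 40.1 with the drug. Replicate 2 was the highest in each of the 4 groups, and within each replicate number the treated library was the lower one. The log2 differences were -1.14 ± 0.41 in wild type (limma adjusted p = 4.7e-05 with the block, 0.467 without) and -1.45 ± 0.41 in the mutant (5.79e-06 with the block, 0.23 without).

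The neighbouring cyp-25A2 showed the same arrangement of libraries. It had 215, 362 and 225 normalised reads in wild-type control and 126, 193 and 127 with fluvastatin. In the mutant cyp-25A2 had 203, 252 and 210.4 in control and 82.8, 136 and 78.2 with the drug. Treated libraries lay below controls in both genotypes, and the log2 differences were -0.83 ± 0.28 (limma adjusted p = 0.000205 with the block, 0.341 without) and -1.20 ± 0.28 (8.07e-06 with the block, 0.0858 without). The third gene of the run, cyp-25A3, was called in the mutant alone with the block (log2 -0.52 ± 0.23, limma adjusted p = 0.0207, against 0.831), and its wild-type log2 difference was -0.32 (limma adjusted p = 0.19 with the block).

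In the cyp-13A subfamily 12 genes are annotated and 6 were tested. Without the block none was called in either genotype by limma, edgeR or DESeq2. At an unadjusted limma p under 0.05, 906 of all 15529 genes passed in wild type and 884 in the mutant. Of the cyp-13A genes, 1 passed in each genotype. The most abundant per kilobase over all 12 libraries, cyp-13A2, had 70.5, 108 and 78.3 normalised reads in wild-type control and 53.4, 85.4 and 43.8 with fluvastatin, groups that overlap. With fluvastatin cyp-13A5 was higher per kilobase in both genotypes (30.6 against 26.9 in wild type and 26.6 against 16.2 in the mutant). In the mutant the cyp-13A2 control values of 74.2, 69.5 and 54.6 lay above the treated values of 39.7, 42.9 and 27.5, and this fall was called with the block (log2 -0.85 ± 0.30, limma adjusted p = 0.0112, against 0.483). In the same run cyp-13A6 went up. It had 15.7, 9.95 and 9.49 normalised reads in wild-type control and 37.7, 36.4 and 19.1 with fluvastatin, a rise called with the block (log2 1.31 ± 0.48, limma adjusted p = 0.0268, against 0.496). In the mutant the values of cyp-13A6 were 6.1, 8.57 and 2.33 in control and 9.29, 14.9 and 7.39 with the drug, which overlap and were not called (log2 0.87 ± 0.48, limma adjusted p = 0.18 with the block). At each dose the mutant libraries of cyp-13A6 lay wholly below those of wild type, a difference that was not called. At 1 mM it was log2 -1.47 ± 0.48 (limma adjusted p = 0.0896 with the block). The CYP-13A12 enzyme is known in worms for the response to reoxygenation, and its gene had log2 differences of -0.68 and 0.14, neither called.

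The pair of cyp-13B genes varied between replicates. In each group cyp-13B2 was highest in replicate 2, while cyp-13B1 was highest in replicate 2 in both control groups and in replicate 1 in both treated groups. In wild type cyp-13B1 had 25.2, 58.8 and 11.9 normalised reads in control and 118.7, 79.1 and 59.5 with fluvastatin, and its log2 difference of 1.61 ± 0.64 was the largest in wild type that was called neither without nor with the block (limma adjusted p = 0.619 and 0.0858). In the mutant its log2 difference was 1.28 ± 0.64. The other gene, cyp-13B2, was not called (log2 0.11 and -0.12).

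Neighbouring copies thus held genes that moved in opposite directions. In the cyp-34A run the gaps from cyp-34A8 to cyp-34A9 and from cyp-34A9 to cyp-34A10 are 310 and 161 bases, and no other coding gene lies between. The log2 differences in this run in wild type were -0.38 for cyp-34A4, -0.78 for cyp-34A5, 0.17 for cyp-34A6, -0.75 for cyp-34A8, 3.09 for cyp-34A9 and 3.71 for cyp-34A10, with cyp-34A7 too low to test. In the cyp-14A run the gap between cyp-14A1 and cyp-14A2 is 206 bases. The sources used here do not tell how reads matching several of these related copies were assigned, so part of the signal of 1 copy may belong to another.

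The highest members of the CYP4-like group did not move with the drug. Normalised reads of cyp-31A2 were 1967 ± 269 in wild-type control and 1938 ± 206 with fluvastatin, and 2030.2 ± 224 and 1898 ± 125 in the mutant (SD, n = 3). The log2 difference was -0.02 in wild type, with a 95% interval of -0.30 to 0.26, and -0.09 in the mutant, with an interval of -0.37 to 0.18. The intervals of cyp-31A3 ran from -0.31 to 0.23 in wild type and from -0.33 to 0.22 in the mutant. The annotated pseudogene cyp-31A1 was read at 134 to 187 normalised reads in the 12 libraries. Part of these may be reads of its coding relatives, which was not checked. For cyp-44A1 the log2 differences were 0.09 (95% interval -0.22 to 0.41) and -0.02 (-0.34 to 0.30), and its exons overlap those of npp-24. For cyp-23A1 the log2 differences were -0.02 (-0.57 to 0.52) and 0.05 (-0.49 to 0.60).

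Of the remaining CYP4-like genes, 3 were called with the block in at least 1 genotype. The gene cyp-32A1 rose with the block in wild type (log2 0.85 ± 0.28, limma adjusted p = 0.00108, against 0.317 without) and in the mutant (0.50 ± 0.28, 0.0471, against 1.0). The gene cyp-37A1, whose exons overlap F01D5.8, fell with the block in wild type (log2 -0.46 ± 0.17, limma adjusted p = 0.0116, against 0.484) and in the mutant (-0.50 ± 0.17, 0.00754, against 0.409). Neither cyp-42A1 (log2 0.14 and 0.20) nor cyp-32B1 (-0.08 and -0.18) was called.

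The values of cyp-37B1 depended most on the replicate number. It had 35.7, 4.52 and 15.4 normalised reads in wild-type control and 46, 5.21 and 22.4 with fluvastatin. In the mutant cyp-37B1 had 24.4, 2.86 and 5.81 in control and 49, 7.45 and 25.4 with the drug. In each group replicate 1 was the highest and replicate 2 the lowest, and with the block the mutant difference was called (log2 1.35, limma adjusted p = 0.00979, against 1.0) and the wild-type one was not (0.35, adjusted p = 0.591). On the log2 scale cyp-37B1 deviated from the group means by 1.33 in replicate 1 and by -1.41 in replicate 2, averaged over the 4 groups. A shift of more than 0.5 for any replicate number was found in 15 tested members, 28.3%, beside 27.8% of all genes tested.

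Among all 53 tested members, treated libraries lay wholly above the controls for 15 in wild type and wholly below for 9. Over all genes tested these shares were 4.6% above and 4.37% below. In the mutant 11 members lay wholly above and 10 wholly below, beside 3.87% and 4.06% of all genes. These counts include members that were tested because of their level in 1 treatment.

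The genotypes were then compared. The effects of the drug had the same sign in wild type and mutant for 45 of the 53 members, 21 higher and 24 lower. This was 84.9% of the members, beside 70.3% of all genes tested. The 53 include members that passed the filter through 1 treatment alone, such as cyp-14A4 and cyp-34A10. That filter pooled the genotypes, so these members can owe part of their shared sign to it. Each genotype was compared with its own controls, so the log2 differences share no libraries. The calls share an estimate of each gene's spread made over all 4 groups, so they are not independent. For example, the wild-type calls of cyp-14A3 and cyp-33C9 were lost without the block when mutant control replicate 1 was left out. Of the 10 members called in wild type and the 6 called in the mutant, 6 were shared (cyp-14A4, cyp-29A2, cyp-29A3, cyp-34A9, cyp-34A10 and cyp-43A1). Over all genes 205 calls were shared, 72.7% of the wild-type and 95.8% of the mutant calls. The 4 called in wild type alone were cyp-14A3, cyp-14A5, cyp-33C9 and cyp-34A8, and with the block these were called in the mutant too. With the block, 22 and 23 members were called and 19 were shared, 86.4% of the wild-type calls and 82.6% of the mutant calls, beside 70.6% and 78.6% over all genes.

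No member's drug effect differed between genotypes after adjustment, by limma with or without the block, by edgeR or by DESeq2, and no gene of the 15529 did by limma (0% of all genes). At an unadjusted p under 0.05, 29 of all 15529 genes passed without the block and 386 with it. None of the members passed without the block and 4 passed with it. These were cyp-14A5 (difference of log2 effects, mutant minus wild type, -0.40), cyp-25A2 (-0.36), cyp-43A1 (-0.23) and cyp-37B1 (1.01). The blocked 95% intervals were -0.77 to -0.03 for cyp-14A5, -0.70 to -0.03 for cyp-25A2, -0.46 to -0.0087 for cyp-43A1 and 0.14 to 1.88 for cyp-37B1, and each adjusted limma p was 1.0. Without the block each of the 4 intervals spanned 0, from -0.95 to 0.15 for cyp-14A5 and from -0.61 to 0.14 for cyp-43A1.

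**Figure D4:**
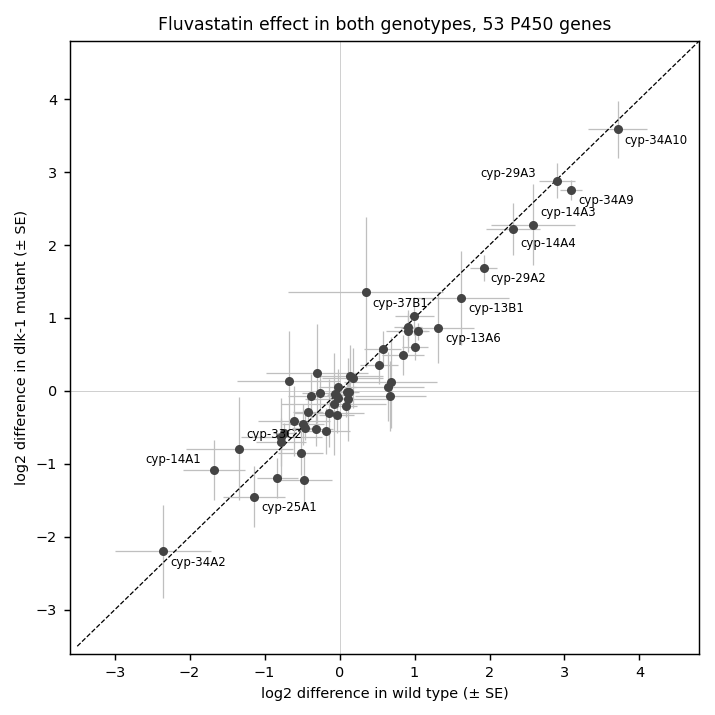
Log2 difference between 1 mM and 0 mM fluvastatin in dlk-1 mutant against wild type (± SE of the fit without the block) for the 53 tested P450 genes, with the line of equal effects dashed. Some members of large effect lie close to the line, for example cyp-29A3 at 2.90 in wild type and 2.88 in the mutant. Others lie further off, such as cyp-14A1 (-1.67 and -1.08) and cyp-37B1 (0.35 and 1.35). The sign is the same in both genotypes for 45 of the 53.

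Mutant and wild type were also compared at each dose. At 0 mM no member was called with or without the block, while 0% of all genes were called without it and 0.0966% with it (0.0515% higher and 0.0451% lower). At an unadjusted p under 0.05 the counts of members were 0 without and 6 with the block, beside 125 and 1151 of all 15529 genes. At 1 mM no member was called without the block (0% of all genes). At an unadjusted p under 0.05 there were 2 members without the block, beside 227 of all 15529 genes. With the block there were 11 such members, 1 higher and 10 lower in the mutant, beside 1233 of all genes. With the block 0.27% of all genes (0.0966% higher and 0.174% lower) and 1 member were called at 1 mM. This was cyp-25A2, lower in the mutant by log2 -0.60 ± 0.28 (limma adjusted p = 0.0482, against 1.0 without the block), and it had 82.8, 136 and 78.2 normalised reads in the treated mutant against 126, 193 and 127 in treated wild type. The mutant was the lower one within each replicate number, but the groups overlap. Libraries of the mutant lay wholly above wild type for 1 tested member at 0 mM and wholly below for 3, beside 1.13% and 1.79% of all genes. At 1 mM these counts were 0 and 8, beside 1.54% and 3.0% of all genes. The members' median log2 difference, mutant minus wild type, was -0.07 at 0 mM and -0.16 at 1 mM. The medians of all genes were 0.02 and 0.01. Of the 53 members, 22 had higher log2 values in the mutant at 0 mM and 11 at 1 mM. No test of the members as a set was made.

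Partners of the P450 enzymes were read from a list of 9 names that stand for 7 electron transfer genes, all 7 found and tested. Without the block 2 rose in wild type and 1 in the mutant, beside 1.39% and 1.13% of all genes. With the block 2 rose in each, beside 3.77% of all genes in wild type and 3.22% in the mutant. The list's medians were log2 0.08 and 0.02. The gene emb-8, the P450 reductase of the worm, had 3061, 3121 and 2930.1 normalised reads in wild-type control and 3959, 3938 and 3778 with fluvastatin. The groups did not overlap and the log2 difference was 0.36 ± 0.06 (limma adjusted p = 0.0155). In the mutant the emb-8 mean went from 3278 to 3884 normalised reads (log2 0.24 ± 0.06, limma adjusted p = 0.00328 with the block, 0.15 without). A cytochrome b5 gene, C31E10.7 (cytb-5.1 in the annotation), rose from a mean of 858 ± 69.7 to 1683 ± 219 normalised reads in wild type (log2 0.97 ± 0.14, limma adjusted p = 0.0038) and from 853 ± 75.3 to 1470.1 ± 232 in the mutant (0.78 ± 0.14, limma adjusted p = 0.0199). The steroid hormone P450 gene daf-9, which carries no cyp symbol, was not called (log2 0.26 and 0.25).

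Of 34 transcription factor genes listed for responses to foreign chemicals and lipids, 33 were tested. In each genotype 1 rose without the block and none fell, beside 1.39% of all genes higher in wild type and 1.13% in the mutant. With the block 6 rose in wild type and 5 in the mutant, beside 3.77% and 3.22% of all genes. The list's medians were log2 0.07 and 0.10. The gene called in both fits was nhr-176, a nuclear hormone receptor known for the induction of a P450 gene by thiabendazole. It had 57.4, 55.2 and 53.4 normalised reads in wild-type control and 134, 123 and 117 with fluvastatin, and its mutant mean went from 59.8 to 131. Treated libraries lay above controls in both genotypes, and the log2 differences were 1.16 ± 0.19 (limma adjusted p = 0.00831) and 1.14 ± 0.19 (limma adjusted p = 0.0113). With the block nhr-86 (log2 0.38, limma adjusted p = 0.000947), pqm-1 (0.46, 0.00126) and cebp-1 (listed as D1005.3, 0.55, 0.045) also rose in wild type. So did atfs-1 (listed as ZC376.7, log2 0.25, limma adjusted p = 0.00688) and zip-2 (0.24, 0.0355). In the mutant nhr-86 (log2 0.36, limma adjusted p = 0.00175), pqm-1 (0.54, 0.000439), cebp-1 (0.55, 0.0473) and atfs-1 (0.22, 0.0213) rose with the block too. The mutant difference of zip-2 was not called (log2 0.22, limma adjusted p = 0.0511 with the block). None of these genes was called without the block in either genotype, where the lowest limma adjusted p was 0.151, for nhr-86 in wild type.

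Marker lists of other tissues and stages moved with some of these comparisons. With the block 4 of 6 vitellogenins, yolk protein genes of the adult intestine, fell in each genotype, and none was called without it. With the block 3.25% of all genes fell in wild type and 3.09% in the mutant. The summed vitellogenin values ran from 121180 to 174760 normalised reads in wild-type control and from 97994 to 123520 with fluvastatin, ranges that overlap. Of 10 intestinal genes 2 fell with the block in each genotype and none was called without it, and the list's medians were log2 0.03 and 0.02. Of 124 cuticle collagens tested 1 fell without and 32 with the block in wild type, while the mutant counts were 1 and 25. Collagens also followed the replicate number, with median deviations of log2 0.81, -1.06 and 0.20 for replicates 1, 2 and 3, and so did the 35 sperm msp genes (0.35, -0.99 and 0.66). None of 8 moulting, 4 muscle or 4 neuronal genes was called in either genotype. The part of stage or tissue makeup in the P450 differences was not tested. In whole worms, fewer cells of a type and less RNA per cell cannot be told apart.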

How the data were processed

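RNA libraries (TruSeq RNA v2, which does not mark strand) of 12 whole-body samples were sequenced as 50 bp single reads, per the labels' protocols. Per the submitters' processing notes, the tools were Bowtie and DESeq2, and no source used here states the genome build. The values are the authors' deposited normalised signal: read counts per transcript model divided by a size factor per library. All values came out as whole reads within 0.01 read (100%). Each sequence name was represented by its transcript model of highest mean. Values were tested as log2(value + 1) over all 4 groups with limma 3.58.1 (trend, robust, two-sided), with no replicate block, for genes at 10 or more in at least 3 libraries. Same-numbered libraries deviated together in all 18 pairs (r from 0.555 to 0.887), so the numbers, whose meaning no label gives, were taken to pair the samples, and a fit with replicate as a block was made. Alternatives were other pseudocounts, filters and scalings, edgeR 4.0.16 and DESeq2 1.42.0 on the recovered reads, and leaving out libraries. Blocked edgeR and blocked leave-outs were added after seeing the data. Named with values were members called in any comparison, the most abundant member per kilobase of each subfamily and the 3 largest uncalled effects per genotype. The members and lists were chosen with earlier results of these data known. Intervals are 95%. The scripts were tested on simulated data.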

Additional observations from a re-analysis of the deposited data

How the results depend on the processing

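In wild type the limma fit without the block called 9 members higher and 1 lower. The counts were 8 and 1 with a pseudocount of 0.5, with no filter, with a filter at 30 and with edgeR, and 11 and 2 in DESeq2. They were 6 and 0 when only these groups were fitted, and 15 and 7 with the replicate block in limma and in edgeR. In the mutant the fit called 6 higher and 0 lower, 7 higher with a filter at 30 or edgeR, 8 and 2 in DESeq2, 4 and 0 when only these groups were fitted, 14 and 9 with the block, and 11 and 9 with the block in edgeR. The comparison of genotypes at 1 mM gave 0 members, and 1 with the block in limma and in edgeR. Leaving out libraries without the block gave 3 to 9 higher and 0 to 1 lower in wild type, and 1 to 7 higher and 0 to 2 lower in the mutant. With the block these ranges were 11 to 16 and 4 to 7 in wild type, 9 to 13 and 5 to 9 in the mutant, and 0 to 1 for the genotypes at 1 mM. Without replicate 1, or without replicate 3, 3 of the 10 wild-type calls remained, and 1 and 3 of the 6 mutant calls. With the block all 10 and all 6 remained in each such leave-out. The call of cyp-14A3 was lost with a pseudocount of 0.5, a filter at 30 and edgeR, and that of cyp-33C9 with no filter. When only these groups were fitted, cyp-14A3, cyp-14A5, cyp-33C9 and cyp-34A8 were lost in wild type and cyp-14A4 and cyp-43A1 in the mutant. Of the 15 leave-outs without the block, the wild-type call of cyp-14A3 was lost in 14, cyp-33C9 in 10, cyp-34A8 in 9 and cyp-14A5 in 6, cyp-14A4 and cyp-34A10 in 2 each and cyp-29A3 and cyp-43A1 in 1 each, and in the mutant that of cyp-14A4 in 4, cyp-34A10 and cyp-43A1 in 2 each and cyp-29A2 and cyp-29A3 in 1 each. Values that changed sign were all uncalled: cyp-13B2 in wild type with edgeR (-0.0013), and over all leave-outs cyp-13B2 (-0.39 to 0.65 in wild type, -0.49 to 0.14 in the mutant), cyp-23A1 (-0.16 to 0.13, -0.13 to 0.26), cyp-31A2 (-0.10 to 0.090 in wild type), cyp-32B1 (-0.62 to 0.49, -0.77 to 0.26), cyp-33E1 (-0.49 to 0.014, -0.17 to 0.15), cyp-37B1 (-0.37 to 1.15 in wild type), cyp-42A1 (-0.21 to 0.55, -0.11 to 0.47) and cyp-44A1 (-0.028 to 0.19, -0.12 to 0.10). The cause was not tested. Depth limits the 17 members too low to test and fold changes such as those of cyp-34A10, cyp-14A3, cyp-14A4, cyp-13A6 and cyp-34A2, whose low groups hold few reads.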

Other observations

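Among the 17 members too low to test, 5 had treated libraries apart from controls in at least 1 genotype at values of a few reads. The gene cyp-13A7 had 3.48, 2.71 and 1.19 normalised reads in wild-type control and 8.28, 15.6 and 7.85 with fluvastatin, while its mutant values were 2.03, 2.86 and 1.16 in control and 5.07, 1.86 and 1.06 with the drug. The groups were apart in wild type and overlapped in the mutant. The annotated pseudogene cyp-13A9 had 5.22, 2.71 and 2.37 normalised reads in wild-type control and 5.52, 14.6 and 11.2 with fluvastatin, and in the mutant 1.02, 1.9 and 2.33 in control and 7.6, 7.45 and 9.51 with the drug. Both of these lie in the cyp-13A run that also holds cyp-13A6. The other 3 were lower with fluvastatin in the mutant and overlapped in wild type. The gene cyp-13A1 had 7.11, 2.86 and 4.65 normalised reads in mutant control and 1.69, 1.86 and 2.11 with the drug. The gene cyp-13A8 had 5.08, 3.81 and 1.16 normalised reads in mutant control and 0, 0.932 and 0 with the drug. The gene cyp-33C12 had 5.08, 1.9 and 1.16 normalised reads in mutant control and 0, 0.932 and 0 with the drug. These 5 genes were chosen after their values were seen, and no test was made.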
